A study of Mus musculus with 12 samples.

Results

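Genes of the lysosome were compared between 3T3-L1 adipocytes treated with a control siRNA and the same cells treated with siRNAs against Zfp407. The genes were every single-symbol row beginning with Atp6v, which names subunits of the vacuolar proton pump (V-ATPase), and 26 listed genes of lysosomal proteases, glycosidases, lipid-handling proteins, membrane proteins and the transcription factors Tfeb, Tfe3 and Mitf. Of these 47 genes, 38 had a row of their own with a mean of at least 1 FPKM and were tested, among 14706 tested rows of a table of 39248. FPKM counts fragments relative to transcript length (in kilobases) and to the mapped fragments of a library, so that levels of different genes can be set side by side. The other 9 comprised 7 genes with a mean below 1 FPKM (Atp6v0d2, Atp6v1b1, Atp6v1c2, Atp6v1e2, Atp6v1g3, Ctsh and Ctss) and 2, Ctsd and Mcoln1, that appear only in a row shared with a neighbouring gene.

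3T3-L1 is a mouse preadipocyte line whose fibroblast-like cells turn into fat-storing adipocytes in culture, and Zfp407 encodes a zinc finger protein. The differentiated cells were electroporated with 0.75 nmol of siRNA 2 days after differentiation, giving 6 libraries of the control siRNA and, for each of 2 Zfp407 siRNAs, 3 libraries. The columns of the table do not say which of the 2 siRNAs a knockdown library received, so the 6 knockdown libraries were treated as 1 arm. Per the series' design text the electroporations were independent, all in 1 cell line, and p-values therefore measure the spread between electroporations, with any difference between the siRNAs inside the knockdown arm.

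The lysosome is the acidic compartment in which cells break down proteins, sugars, lipids and worn-out organelles. Its acidity is made by the V-ATPase, in which a cytosolic V1 sector hydrolyses ATP and turns a membrane-embedded V0 ring that carries protons inward. Many lysosomal genes hold an E-box-like element in their promoters, the CLEAR element with the core CACGTG, through which the MiT/TFE factors TFEB, TFE3 and MITF can raise them together, and in adipocytes lysosomal acid lipase adds to the breakdown of stored lipid.

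Promoter sequences are given first, because CACGTG and its longer form TCACGTG are what links these genes to the MiT/TFE factors in the textbook picture. They were read after the expression calls were made. RefSeq promoters on GRCm38.p6, from 250 bases before to 50 bases after a start site, matched 32 of the 38 tested genes, with 42 promoters in all. CACGTG, which reads the same on both strands, was in 11 of the 42 (26.2%), against 7.15% of 32817 promoters of the same length. TCACGTG, searched on both strands and always overlapping a CACGTG, was in 9 of the 42 (21.4%), against 3.76% of all. The 11 promoters belong to 6 of 13 matched genes that fell in knockdown libraries (Atp6v0d1, Atp6v0e, Atp6v1a, Ctsa, Ctsf and Ctsl) and to 5 of 17 that did not pass the test (Atp6v0b, Gaa, Gla, Glb1 and Lamp1). Neither Tfeb nor Lamp2, the 2 genes that rose, held it in this window. These letters describe the window only and say nothing of binding.

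Stretches from 150 bases before to 20 bases after the start are printed below for 5 genes that fell and for Lamp1, which did not pass the test, with CACGTG in capitals. They were chosen after their values were seen. Each runs 5′ to 3′ on the strand of its gene.
Atp6v0d1 (chr8:105566045-105566214, minus strand): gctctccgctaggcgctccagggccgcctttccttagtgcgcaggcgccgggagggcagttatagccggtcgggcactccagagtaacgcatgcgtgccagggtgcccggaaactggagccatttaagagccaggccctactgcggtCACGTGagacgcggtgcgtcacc
Atp6v0e (chr17:26676246-26676415, plus strand): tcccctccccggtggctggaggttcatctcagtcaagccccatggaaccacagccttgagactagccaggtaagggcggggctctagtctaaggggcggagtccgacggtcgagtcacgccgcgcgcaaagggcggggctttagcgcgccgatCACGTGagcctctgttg
Atp6v1a (chr16:44139240-44139409, minus strand): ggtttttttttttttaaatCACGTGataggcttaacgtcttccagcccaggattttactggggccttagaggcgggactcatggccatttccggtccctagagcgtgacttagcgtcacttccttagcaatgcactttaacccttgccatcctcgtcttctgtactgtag
Ctsa (chr2:164833623-164833792, plus strand): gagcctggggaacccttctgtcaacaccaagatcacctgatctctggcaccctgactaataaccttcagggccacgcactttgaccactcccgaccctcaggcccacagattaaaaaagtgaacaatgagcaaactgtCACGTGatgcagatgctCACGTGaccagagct
Ctsf (chr19:4855015-4855184, plus strand): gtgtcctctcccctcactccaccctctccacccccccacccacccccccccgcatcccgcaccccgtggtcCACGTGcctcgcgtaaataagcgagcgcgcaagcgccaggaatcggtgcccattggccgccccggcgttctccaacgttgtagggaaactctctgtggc
Lamp1 (chr8:13159011-13159180, plus strand): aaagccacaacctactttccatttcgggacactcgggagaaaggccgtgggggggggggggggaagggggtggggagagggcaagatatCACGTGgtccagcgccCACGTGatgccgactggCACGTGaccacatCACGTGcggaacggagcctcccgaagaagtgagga
The copy of Atp6v0d1 begins 3 bases before the annotated start and that of Atp6v0e 3 bases after it, while that of Atp6v1a lies 131 bases before it. Ctsa has 2 copies in the promoter shown, the first beginning 12 bases before the start, and none in its other RefSeq promoter. The copy of Ctsf begins 79 bases before the start and is not preceded by a T nor followed by an A, so it is no TCACGTG. Lamp1 has 4 copies, the first beginning 61 bases before the start. The promoter with the most copies thus belongs to a gene that did not pass the test.

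Knockdown libraries held less Zfp407 mRNA in each case, at 1.60 to 2.13 FPKM against 2.70 to 3.16 in control libraries (means 1.79 ± 0.208 and 2.83 ± 0.178, SD over n = 6 per arm; log2 fold change −0.46, adjusted p in limma = 8.0e-05). Sequencing depth is unknown in absolute terms, and the smallest steps of the values put the depths of the libraries at 0.867 to 1.14 times that of control library 1. All 10 adipocyte markers were above 1 FPKM, with a summed level of 16384 to 20165 FPKM in control and 14474 to 19166 in knockdown libraries. Of these 10, limma called 5 lower (Lep by −0.96, Cfd −0.32, Adipoq −0.29, Slc2a4 −0.22 and Cidec −0.13 on the log2 scale) and Cebpa higher (0.39). Among all tested rows, 24.8% were called lower and 11.6% higher. Macrophages and osteoclasts are rich in lysosomes, and most of their markers were below 1 FPKM. Macrophage markers summed to 3.83 to 4.71 FPKM in control and 3.41 to 4.69 in knockdown libraries, with a row for 9 of 10 names, 8 of these below 1 FPKM and Emr1 at 0 throughout. The remaining one, Cd14, had means of 3.41 FPKM in control and 3.25 in knockdown libraries and was not called. The 5 osteoclast markers summed to 1.55 to 1.97 and 0.971 to 1.74 FPKM, with 4 below 1 and Dcstamp at 0. Acp5, the remaining one and also in the list of other hydrolases below, fell from a mean of 1.53 to 1.13 FPKM (adjusted p in limma = 0.0242). The 9 preadipocyte and fibroblast markers summed to 3707 to 4083 FPKM in control and 3157 to 3978 in knockdown libraries. Of the 8 tested, the collagen genes Col1a1 and Col3a1 fell (−0.34 and −0.23) and 6 did not pass. The part of these marker changes in the results below was not tested. Mitochondrial rows took 22.7% to 25.3% of summed FPKM in control libraries and 19.4% to 32.8% in knockdown libraries, highest in knockdown library 6. Short-RNA rows took 36.8% to 39.3% and 38.7% to 44.2%, with 5 of 6 knockdown libraries above every control library, and their part was not tested. In rows below 0.5 FPKM the values move in steps, and the step is the FPKM that 1 read is worth. This value of 1 read differed between the arms (by over 0.01 log2 units) in 30.4% of 1141 rows, against 4.29% and 2.98% within the arms, and its 90th percentile between arms was 0.237. That term belongs to a whole arm, so the spread between libraries does not show it, and 11 of the 17 genes called below changed by no more than 0.237. Less RNA of a gene per cell and fewer cells that express it cannot be told apart in these bulk libraries.

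Lysosomal genes, like the tested rows as a whole, were lower more often than higher in knockdown libraries, by small amounts. Of the 38 genes, 15 fell (39.5%), 2 rose and 21 did not pass (limma on log2(FPKM + 1), adjusted p below 0.05 over all 14706 rows). Among all rows, 24.8% were called lower and 11.6% higher, 36.4% in all. The shares among the 9550 protein-coding rows were 29.0% lower and 9.21% higher, 38.2% in all. Among 2331 protein-coding rows with levels between the quartiles of the lysosomal genes (30.1 to 135.1 FPKM), 33.3% were called lower and 8.92% higher. The median log2 fold change of the 38 genes was −0.11, against −0.05 over all rows and −0.09 over those protein-coding rows. Their changes ran from −0.55 for Ctsf to 0.34 for Tfeb, and 34 were smaller than 1.2-fold. Negative changes made up 31 of the 38 (81.6%), against 59.4% of all rows and 64.7% of protein-coding rows, and 24 of the 38 when libraries were scaled to protein-coding rows. Against a minimum fold of 1.2, limma called 0 of the 38, where 3.69% of all rows passed lower, 2.13% higher and 5.82% in either direction; in the ordinary test 21 (55.3%) had an unadjusted p below 0.05, as did 45.7% of all rows.

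The arms did not overlap for 5 genes, Atp6v0d1, Atp6v0e, Ctsf, Man2b1 and Lipa, each lower in every knockdown library than in any control library. Among all rows, 13.9% were apart in that direction and 5.51% in the other, in which no lysosomal gene was apart. The count also moves with how libraries are scaled. With each library centred on its median, 11 fell and 5 rose, with quantile normalisation 10 fell and 5 rose, with mitochondrial and short-RNA rows left out of the scaling 7 fell and 1 rose, and with libraries scaled to their protein-coding rows, a choice made after seeing the data, 9 fell and 5 rose. In the same order, these scalings called 3146, 3252, 2518 and 2610 of the 14706 rows lower, against 3648 in the main fit. They called 2307, 2172, 1184 and 2559 rows higher, against 1712. Without control library 1, 9 lysosomal genes fell and 1 rose, and without control library 5 or 6, 10 fell. The rows called lower were then 3257, 3290 and 3367. Calls of 8 genes were kept under all 4 scalings tried and without any 1 library: Atp6v0d1, Atp6v0e, Atp6v1h, Ctsf, Ctsk, Lipa, Man2b1 and Tfeb. Of these, Atp6v0d1, Atp6v1h and Ctsk changed by less than 0.237 in the main fit, the 90th percentile of the term between arms in the value of 1 read. Lipa and Atp6v0e were barely past it there, at −0.240 and −0.243. Under the 4 scalings Lipa ran from −0.236 to −0.180 and Atp6v0e from −0.239 to −0.182. Neither the scalings nor the fits without 1 library show that term. In the authors' deposited table, 0 of the 38 and 1.83% of all rows tested here are marked significant, the lowest q-value of the 38 being 0.167 for Man2b1.

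**Figure D1:**
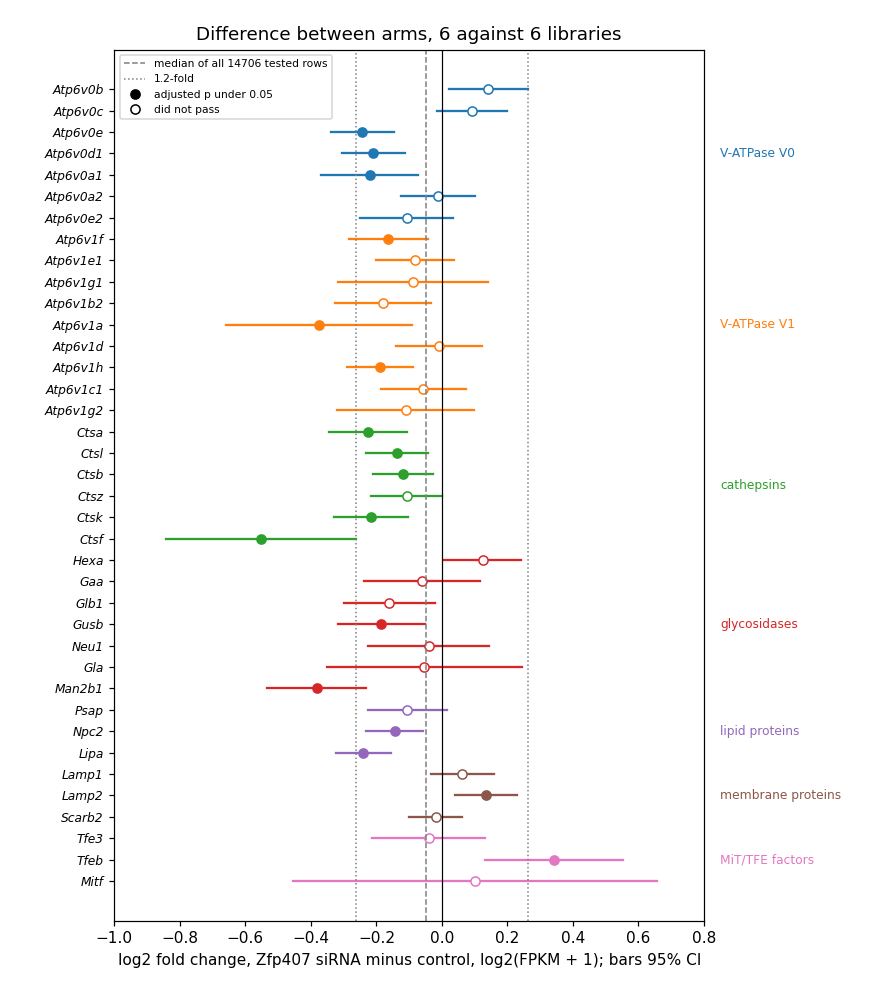
Log2 fold change (knockdown minus control, on the log2(FPKM + 1) scale) of the 38 lysosomal genes by role, with 95% confidence intervals from limma; colours give the role, filled points passed the test (adjusted p under 0.05) and open points did not, and dotted lines mark 1.2-fold. Changes of 34 genes are smaller than 1.2-fold, with Ctsf lowest at −0.55 and Tfeb highest at 0.34, and the interval of Mitf is the widest.

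The V0 sector, which carries protons through the membrane, had 3 of 7 tested subunits lower and none called higher, with a median of −0.11. Those 3 are 42.9% of the 7, against 24.8% of all rows and 33.3% of the protein-coding rows of like level. Under the other scalings 2 or 3 were lower and 0 or 2 higher. Atp6v0d1 (XLOC_034047, chromosome 8, 105524465 to 105566047) encodes the d subunit, which joins the ring to the central stalk. Its lowest, median and highest FPKM were 106.7, 111.0 and 118.1 in control libraries and 90.7, 93.7 and 105.1 in knockdown libraries. Every knockdown library lay below every control library. The log2 fold change was −0.21 (SE 0.04, adjusted p in limma = 0.0030), and p was 0.00216 in the two-sided exact permutation test over libraries, its smallest possible value. The size of the change is within the 0.237 of the term between arms, which neither test shows. Atp6v0e (XLOC_013693, chromosome 17, 26676396 to 26699644), a small membrane subunit, ran at 110.4, 116.1 and 123.2 FPKM in control and 92.2, 99.7 and 104.4 in knockdown libraries. The arms were again apart, with a log2 fold change of −0.24 (SE 0.04, adjusted p in limma = 0.0011). Atp6v0a1, one form of the large a subunit that holds the proton half-channels, fell from 37.4 ± 3.21 to 31.9 ± 2.81 FPKM (SD over n = 6 per arm; log2 fold change −0.22, adjusted p in limma = 0.0229), and its arms overlapped. That call was lost without control library 1 or 4 and under each scaling other than centring.

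The proteolipids of the proton-carrying ring were not called lower. Atp6v0b and Atp6v0c, 2 such proteolipids, had means of 144 and 120 FPKM in control and 160 and 128 in knockdown libraries, with log2 fold changes of 0.14 and 0.09 (adjusted p in limma = 0.0651 and 0.165). Both were called higher with libraries centred, quantile normalised or scaled to protein-coding rows, and neither was called when mitochondrial and short-RNA rows were left out of the scaling. The summed level of the 7 V0 genes was 562 ± 17.6 FPKM in control and 546 ± 21.2 in knockdown libraries, 2.9% lower. Summed FPKM of all protein-coding rows was also lower, with medians of 522055 in control and 496989 in knockdown libraries. The sum of the V0 genes is not scaled for this.

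Where a subunit has alternative forms, 1 form usually made up nearly all of its FPKM. Atp6v0d1, Atp6v1e1, Atp6v1b2 and Atp6v1c1 each held 99.8% to 100% of the FPKM of their subunit in both arms, Atp6v1g1 held 96.4% in control libraries and Atp6v0e 91.5%. The forms known from osteoclasts and kidney, Atp6v0d2 and Atp6v1b1, had control means of 0.0019 and 0.0048 FPKM. Among the 3 a-subunit genes with a row of their own, the FPKM was divided, with 40.4% ± 2.65 on Atp6v0a1, 22.7% ± 1.46 on Atp6v0a2 and 36.9% ± 2.08 on Tcirg1 in control libraries (SD, n = 6). In knockdown libraries the shares were 35.9% ± 3.40, 23.4% ± 2.07 and 40.7% ± 4.52. Tcirg1, the a3 form, was itself not called (34.1 against 36.5 FPKM, adjusted p in limma = 0.501), and the shares were not tested. Atp6v0a4, the remaining a form, could be read only in a row shared with D630045J12Rik, at 1.92 FPKM in control and 1.88 in knockdown libraries.

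The V1 sector, which hydrolyses ATP, had 3 of 9 tested subunits lower and none higher, again with a median of −0.11. Those 3 are 33.3% of the 9, against 24.8% of all rows and 33.3% of the protein-coding rows of like level. All 9 log2 fold changes were negative in the main fit, from −0.38 to −0.01, as were 59.4% of all rows. Under the other scalings 1 to 3 were called lower and none higher. Atp6v1d was above 0 with libraries centred (0.026), quantile normalised (0.044) or scaled to protein-coding rows (0.052). Atp6v1c1 was above 0 with quantile normalisation (0.0008) or scaling to protein-coding rows (0.0026). Atp6v1a (XLOC_013128, chromosome 16, 44085400 to 44139714), the catalytic subunit, ran from 63.7 to 68.4 FPKM in the 6 control libraries. Knockdown libraries 1 to 6 held 41.3, 40.7, 38.5, 63.4, 64.2 and 59.3 FPKM, so that 3 lay near the control range and 3 far below it. The log2 fold change was −0.38 (SE 0.13, adjusted p in limma = 0.0400; two-sided exact permutation p = 0.0173). This call was kept in only 3 of the 12 fits that leave out 1 library, with adjusted p from 0.0168 to 0.0845, and was lost without any 1 control library, without knockdown library 1, 2 or 3, and with mitochondrial and short-RNA rows left out of the scaling (0.0653). Libraries 1 to 3 were also the lowest knockdown libraries for Atp6v1g1, a stalk subunit (92.7, 89.97 and 100.7 FPKM against 128.7, 131.0 and 131.8), and for Atp6v1b2, the non-catalytic nucleotide-binding subunit (67.4, 69.1 and 66.1 against 84.1, 85.3 and 75.6). Neither Atp6v1g1 nor Atp6v1b2 passed the test (adjusted p in limma = 0.539 and 0.0542). Which siRNA these libraries received is not marked in the table, so a difference between siRNAs was not tested.

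Atp6v1h, a regulatory subunit, was also lowest in knockdown libraries 1 to 3, by less (37.0, 37.5 and 37.4 FPKM against 39.7, 43.4 and 38.2). Atp6v1c1, Atp6v1d and Atp6v1e1, none of them called, were lowest in the same libraries. Unlike Atp6v1a, Atp6v1h was called in each of the 12 fits without 1 library. Atp6v1h fell from 44.4 ± 2.27 to 38.9 ± 2.41 FPKM (SD over n = 6 per arm; log2 fold change −0.19, SE 0.05, adjusted p in limma = 0.0075), with 5 of 6 knockdown libraries below the lowest control library. Atp6v1f, a subunit of the central rotor, fell by 0.16 on the log2 scale, from 190.1 ± 13.6 to 169.5 ± 9.85 FPKM (adjusted p in limma = 0.0351). Its row shares a locus with 3 other rows, and the call was lost under each scaling other than quantile normalisation and kept in 4 of 12 fits without 1 library (adjusted p 0.0163 to 0.0765). The summed level of the 9 V1 genes was 760 ± 36.0 FPKM in control and 693 ± 68.4 in knockdown libraries, 8.8% lower. This sum too is not scaled for the lower protein-coding sum of knockdown libraries.

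**Figure D2:**
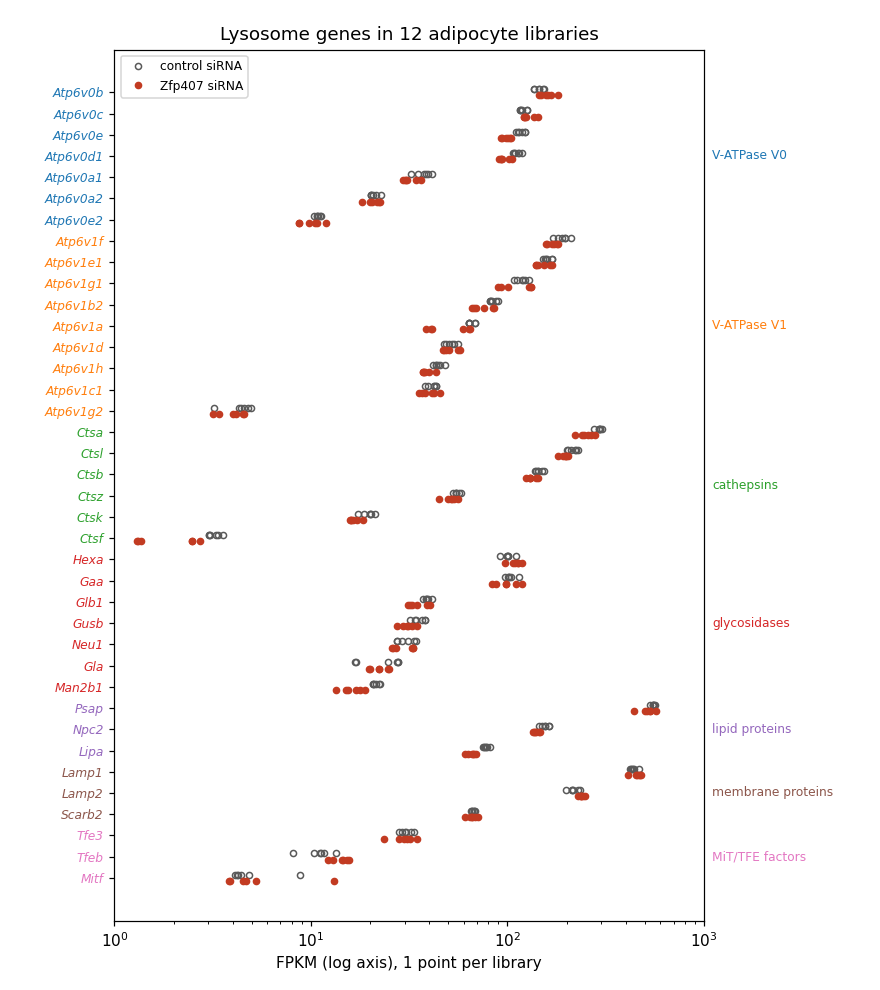
FPKM (log axis) of each of the 38 lysosomal genes in the 6 control and 6 knockdown libraries, 1 point per library, ordered by role. Levels span from 1.30 FPKM (Ctsf) to 567 FPKM (Psap), and the arms overlap for 33 of the 38 genes.

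Cathepsins, the lysosomal proteases, had 5 of 6 tested genes lower, all 6 log2 fold changes negative and a median of −0.18. Those 5 are 83.3% of the 6, against 24.8% of all rows and 33.3% of the protein-coding rows of like level. With libraries centred 3 of the 6 were called lower, and under each of the other 3 scalings 2, Ctsf and Ctsk. Ctsf (XLOC_016062, chromosome 19, 4855129 to 4860912), a cysteine protease, had the lowest level. Control libraries 1 to 6 held 3.58, 3.38, 3.03, 3.06, 3.30 and 3.02 FPKM. Knockdown libraries 1 to 6 held 2.496, 2.72, 2.48, 1.30, 1.36 and 1.32 FPKM, so that libraries 4 to 6, which held near-control Atp6v1a, were the lowest for Ctsf. The arms did not overlap, and the knockdown mean was 39.7% below the control mean. On the log2(FPKM + 1) scale, which understates the change of so low a gene, the difference was −0.55 (SE 0.13, adjusted p in limma = 0.0065; two-sided exact permutation p = 0.00216). The authors' deposited table gives −0.75 with a q-value of 0.906.

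The abundant proteases moved less. Ctsa (XLOC_018669, chromosome 2, 164830732 to 164857711), a serine carboxypeptidase that also protects the sialidase NEU1 and beta-galactosidase, ran at 275.1, 294.7 and 303.2 FPKM (lowest, median, highest) in control and 220.0, 250.7 and 278.4 in knockdown libraries. A single knockdown library reached into the control range, and the log2 fold change was −0.23 (SE 0.05, adjusted p in limma = 0.0065). That call was lost under each scaling other than centring (adjusted p 0.0514 to 0.0848). Ctsk, a collagen-degrading protease, fell from 19.5 ± 1.35 to 16.6 ± 0.996 FPKM (SD over n = 6 per arm; log2 fold change −0.22, adjusted p in limma = 0.0061). Ctsl and Ctsb, broad-acting cysteine proteases, fell by 0.14 and 0.12 on the log2 scale (adjusted p in limma = 0.0275 and 0.0409), and both calls were lost under all 4 scalings. Without 1 library, the call of Ctsl was lost without control library 1, 5 or 6, and that of Ctsb was kept in 4 of 12 fits. Ctsz had a log2 fold change of −0.11 and did not pass (adjusted p in limma = 0.113). The summed cathepsin level was 730 ± 14.3 FPKM in control and 649 ± 33.8 in knockdown libraries, 11.1% lower, and its highest knockdown library (683) lay below its lowest control library (707). These values are likewise not scaled for the lower protein-coding sum of knockdown libraries, so the separation is one of unscaled sums only. The knockdown library at 683, library 2, had the lowest protein-coding sum of its arm (465680, against 479435 to 541927 in control libraries). Ctsd, the aspartic protease, could be read only in a row shared with 6330512M04Rik, at 397 FPKM in control and 381 in knockdown libraries.

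**Figure D3:**
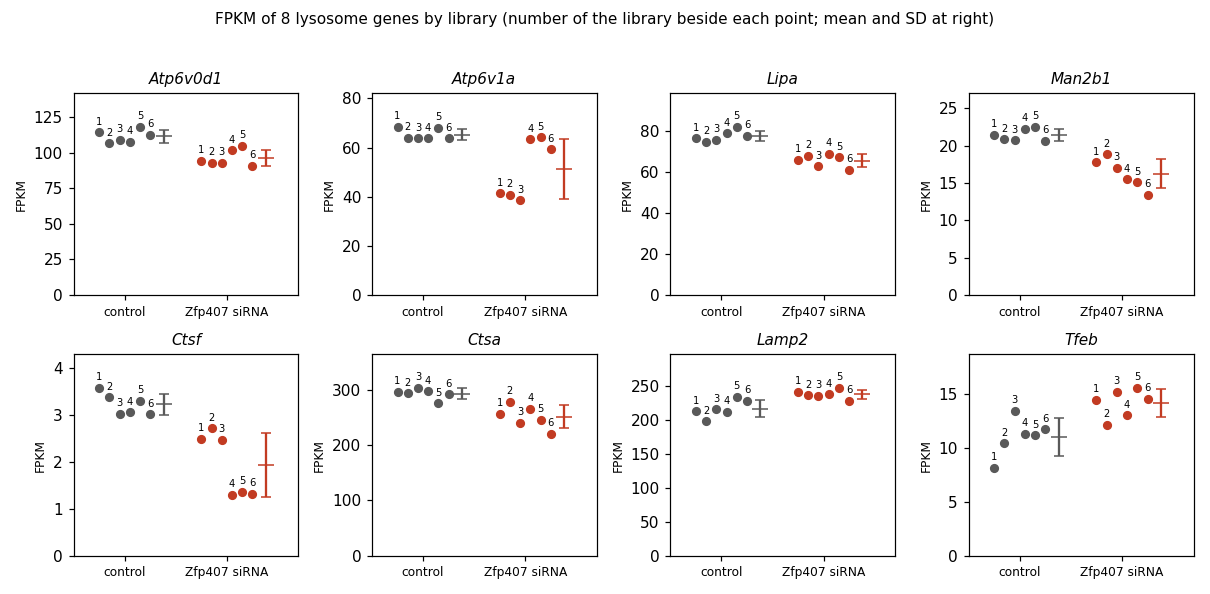
FPKM of 8 lysosomal genes in control libraries 1 to 6 and knockdown libraries 1 to 6, numbered, with the mean and SD of each arm. Lipa, Man2b1, Ctsf and Atp6v0d1 show no overlap between arms, and Atp6v1a is at 38.5 to 41.3 FPKM in knockdown libraries 1 to 3 and at 59.3 to 64.2 in libraries 4 to 6.

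Among 7 glycosidases, which remove sugars from glycoproteins, glycolipids and glycogen, 2 fell and none was called higher, with a median of −0.06. Those 2 are 28.6% of the 7, against 24.8% of all rows and 29.0% of protein-coding rows. Man2b1 (XLOC_033233, chromosome 8, 85083269 to 85098739), the lysosomal alpha-mannosidase, ran at 20.6, 21.2 and 22.5 FPKM (lowest, median, highest) in control and 13.4, 16.3 and 18.8 in knockdown libraries. The arms were apart, and the log2 fold change was −0.38 (SE 0.07, adjusted p in limma = 0.0010), though not past the minimum fold (adjusted p = 0.441). Gusb, beta-glucuronidase, fell from 35.4 ± 2.53 to 31.1 ± 2.50 FPKM (SD over n = 6 per arm; adjusted p in limma = 0.0310), a call lost under all 4 scalings (adjusted p 0.0629 to 0.133) and kept in 6 of 12 fits without 1 library. Hexa, the alpha subunit of beta-hexosaminidase, had the opposite sign, at 100.3 and 109.5 FPKM (log2 fold change 0.12, adjusted p in limma = 0.0905), and was called higher in the same 3 rescaled fits as Atp6v0b. Gaa, which digests glycogen, Gla, Glb1 and Neu1 had log2 fold changes of −0.06, −0.05, −0.16 and −0.04 and did not pass. The 95% interval of Gaa ran from −0.24 to 0.12.

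Of the 3 lipid-handling genes, 2 fell (66.7%, against 24.8% of all rows and 29.0% of protein-coding rows). Lipa (XLOC_016793, chromosome 19, 34492318 to 34527474), lysosomal acid lipase, which splits cholesteryl esters and triglycerides, had the lowest adjusted p of the 38. It ran at 74.7, 77.1 and 81.96 FPKM (lowest, median, highest) in control and 61.1, 66.5 and 68.9 in knockdown libraries. No knockdown library reached the control range, and the knockdown mean was 15.5% lower (log2 fold change −0.24, SE 0.04, adjusted p in limma = 4.5e-04). Npc2, which hands cholesterol to the exporter NPC1, fell from 155 ± 7.42 to 140.0 ± 4.97 FPKM (SD over n = 6 per arm; log2 fold change −0.14, adjusted p in limma = 0.0140), a call lost with mitochondrial and short-RNA rows left out of the scaling (0.0941). Psap, the precursor of the saposins and the most abundant of the 38 at 550.7 FPKM in control libraries, had a log2 fold change of −0.11 and did not pass (adjusted p in limma = 0.158). Its lowest value, 437.9 FPKM, was in knockdown library 6, and the authors' deposited table gives the status FAIL for its row.

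None of the 3 tested membrane proteins was called lower, and 1 rose. That 1 is 33.3% of the 3, where 36.4% of all rows were called in either direction (24.8% lower, 11.6% higher). Lamp2 (XLOC_037817, chromosome X, 38401009 to 38456470), which lines the lysosomal membrane and whose A form serves chaperone-mediated autophagy, ran at 198.1, 214.6 and 234.4 FPKM (lowest, median, highest) in control and 228.6, 237.2 and 247.6 in knockdown libraries. The ranges overlapped, with 5 of 6 knockdown libraries above the highest control library. The log2 fold change was 0.13 (SE 0.04, adjusted p in limma = 0.0277), and the call was kept in 7 of 12 fits without 1 library (adjusted p 0.0143 to 0.0577) and lost with mitochondrial and short-RNA rows left out of the scaling (0.0927). Lamp1, its more abundant relative, whose promoter above holds 4 copies of CACGTG, stood at 436 ± 16.1 and 455 ± 23.7 FPKM (SD over n = 6 per arm; log2 fold change 0.06, adjusted p in limma = 0.302). Scarb2, the receptor that carries glucocerebrosidase to lysosomes, had a log2 fold change of −0.02 with a 95% interval of −0.10 to 0.06. Mcoln1, the calcium channel, could be read only in a row shared with Pnpla6, at 48.1 and 45.9 FPKM.

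Of the 3 MiT/TFE factors, only Tfeb was called (33.3%, where 36.4% of all rows were called in either direction and 11.6% higher). Tfeb (XLOC_014039, chromosome 17, 47737030 to 47792419) was at 8.11, 11.2 and 13.4 FPKM (lowest, median, highest) in control and 12.1, 14.5 and 15.5 in knockdown libraries. Of the 6 knockdown libraries, 4 lay above every control library. It rose by 0.34 on the log2 scale (SE 0.10, adjusted p in limma = 0.0158; two-sided exact permutation p = 0.0065), was called in each of the 12 fits without 1 library, and did not pass the minimum fold (adjusted p = 1). The authors' deposited table gives a log2 fold change of 0.44 with an unadjusted p-value of 0.454. Tfe3, the most abundant of the 3, had means of 30.6 ± 2.03 and 29.8 ± 3.79 FPKM in control and knockdown libraries (SD over n = 6 per arm; log2 fold change −0.04, 95% interval −0.21 to 0.13, adjusted p in limma = 0.720), a sign that flips under quantile normalisation and scaling to protein-coding rows.

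The means of Mitf rested on single libraries. Control libraries held 4.12 to 4.85 FPKM except library 6 at 8.75, and knockdown libraries held 3.85 to 5.27 except library 3 at 13.1. The log2 fold change of 0.10 (SE 0.26, adjusted p in limma = 0.785) became −0.13 without knockdown library 3. The spread of Mitf allows changes from −0.45 to 0.66 on the log2 scale (95% interval), so these libraries place little limit on it. These values are mRNA levels and do not show the location or activity of the proteins.

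**Figure D4:**
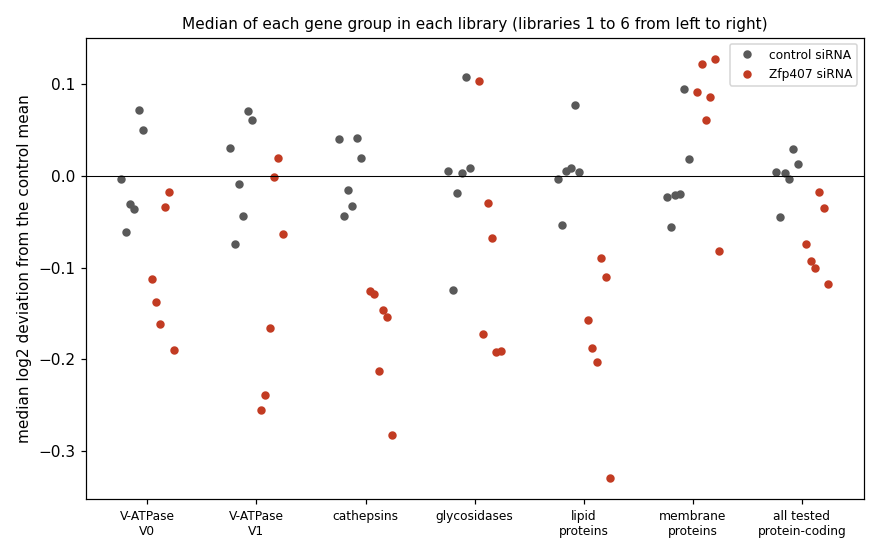
Median log2 deviation from the control mean over the genes of each role, 1 point per library, in order of library number from left to right within an arm. V1 subunits are lowest in knockdown libraries 1 to 3 (−0.26 to −0.17) and nearer 0 in libraries 4 to 6, while cathepsins are at −0.28 to −0.13 in the 6 knockdown libraries and lowest in library 6.

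The libraries differed in which roles were low. The median deviation of the V1 subunits was −0.26, −0.24 and −0.17 in knockdown libraries 1 to 3, and −0.0014, 0.02 and −0.06 in libraries 4 to 6. Cathepsins were at −0.13, −0.13, −0.21, −0.15, −0.15 and −0.28 in the same order, below 0 in each. The lipid-handling genes were lowest in library 6 (−0.33), which also held the highest mitochondrial share. All protein-coding rows had a median deviation of −0.12 in that library and −0.02 in library 4. Without library 6, 13 lysosomal genes fell and 3 rose, where 3382 of all rows were called lower and 1668 higher. The coefficient of variation was higher among knockdown than control libraries for 30 of the 38 genes, with medians of 8.23% and 5.00%.

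Other lysosomal genes, 66 tested of 75 listed, gave 33 called lower, 4 called higher and a median of −0.14. Of all rows 24.8% were called lower, and of protein-coding rows 29.0%. With mitochondrial and short-RNA rows left out of the scaling 18 were lower and 2 higher, and scaled to protein-coding rows 17 and 8. Over all rows these 2 scalings called 2518 lower and 1184 higher, and 2610 and 2559. In the list of other hydrolases and proteins that assist them, 22 of 31 fell (71.0%), none was called higher and the median was −0.21. Under the 4 scalings 12 to 18 of the 31 were lower and at most 1 higher. In 14 of the 31 the arms were apart in that direction, against 13.9% of all rows. Gm2a, the activator protein that presents ganglioside GM2 to hexosaminidase, fell from 27.9 ± 1.28 to 19.4 ± 1.30 FPKM (SD over n = 6 per arm; log2 fold change −0.50, adjusted p in limma = 8.5e-06), and Pla2g15, a lysosomal phospholipase, fell from 51.3 ± 1.15 to 37.96 ± 3.18 FPKM (log2 fold change −0.43). Gm2a also passed the minimum fold of 1.2 (adjusted p = 0.0045), and Idua, the iduronidase of glycosaminoglycan breakdown, did so at a log2 fold change of −0.66 (adjusted p = 0.0318). Idua was named after its values were seen, and its row shares a locus with 9 others.

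Delivery of hydrolases to the lysosome, by mannose 6-phosphate tags and sorting receptors, had 4 of 11 genes lower and 1 higher. The 4 lower are 36.4% of the 11, against 24.8% of all rows. Sort1, the sorting receptor sortilin, which also takes part in forming GLUT4 vesicles in adipocytes, ran at 97.6 to 108.4 FPKM in control and 66.1 to 77.9 in knockdown libraries. The arms were far apart, with a log2 fold change of −0.51 (SE 0.05, adjusted p in limma = 1.1e-05; 0.0049 against the minimum fold). Gnptg, a subunit of the enzyme that begins the mannose 6-phosphate tag, fell by 0.42 on the log2 scale (adjusted p in limma = 6.7e-05). Nagpa, which uncovers the tag, rose by 0.14 (adjusted p in limma = 0.0460), a call lost in 10 of 12 fits without 1 library. The mannose 6-phosphate receptors Igf2r and M6pr did not pass.

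Other membrane proteins were called in both directions, 6 of 17 lower and 2 higher, with a median of −0.07. The 6 lower are 35.3% of the 17, against 24.8% of all rows and 29.0% of protein-coding rows. Called higher were 11.6% of all rows and 9.21% of protein-coding rows. Tpcn1, a two-pore cation channel of endosomes and lysosomes, fell from 29.4 ± 1.29 to 20.7 ± 2.42 FPKM (SD over n = 6 per arm; log2 fold change −0.49, adjusted p in limma = 2.0e-04), and Lmbrd1, which serves the export of cobalamin, fell by 0.20. Slc17a5, the sialic acid exporter, and Ostm1, the partner of the chloride transporter CLCN7, rose by 0.24 and 0.16 (adjusted p in limma = 0.0108 and 0.0217). Of the V-ATPase accessory genes, Atp6ap1 fell from 246 ± 11.1 to 209 ± 12.4 FPKM with the arms apart (log2 fold change −0.23, adjusted p in limma = 0.0024), and Atp6ap2 and Tcirg1 did not pass.

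Of 4 tested genes that control the MiT/TFE factors, Flcn was the only one called (25%, where 36.4% of all rows were called in either direction and 11.6% higher). Flcn encodes folliculin, which with its partners FNIP1 and FNIP2 acts on the Rag GTPases that hold TFEB and TFE3 in the cytosol, and it is itself a known MiT/TFE target. It ran at 31.6 to 35.7 FPKM in control and 40.4 to 44.9 in knockdown libraries, above the highest control in all 6 (log2 fold change 0.32, SE 0.04, adjusted p in limma = 5.5e-05). Its row shares a locus with 4 other rows, and it did not pass the minimum fold (adjusted p = 0.585). Fnip1, Fnip2 and Rragc were not called, although 2 or 3 of the 4 genes were called higher under each scaling other than that without mitochondrial and short-RNA rows. Usf2, another E-box-binding factor on this list, was below the 1 FPKM filter and not tested. Its row held 0.369 to 0.621 FPKM in control and 0.785 to 1.44 in knockdown libraries, above the highest control in all 6, and it was named after its values were seen. A further row names Usf2 together with its neighbour Lsr.

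**Figure D5:**
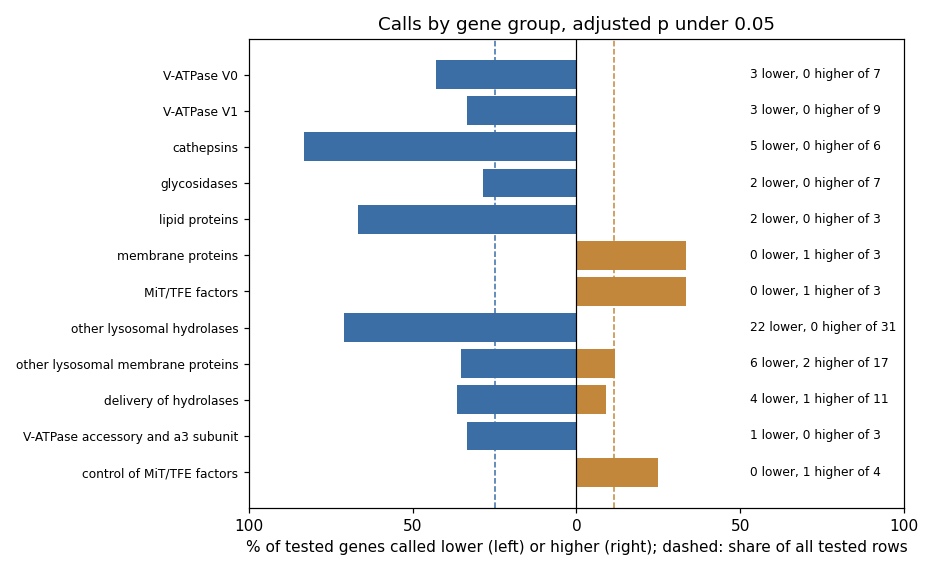
Share of tested genes called lower and higher in knockdown libraries (limma, adjusted p below 0.05; bars to the left and right) by role and list. Cathepsins have 5 of 6 and other hydrolases 22 of 31 called lower (2 or 3 of 6 and 12 to 18 of 31 under other scalings). The 3 membrane proteins among the 38 genes, the MiT/TFE factors and the genes that control them have none called lower and 1 each called higher. Dashed lines mark all rows (24.8% lower, 11.6% higher). Protein-coding rows, not marked, were 29.0% lower and 9.21% higher.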

How the data were processed

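RNA of 12 libraries was measured by sequencing. FPKM values per gene and library were made by the authors before deposit, and the deposited table also holds, per the file headers, their FPKM of each arm, fold change on the log2 scale, p-value and q-value, and other fields (status, test statistic). Cufflinks 2.0.2, SAMtools 0.1.18.0, TopHat2 2.0.5 and Bowtie2 2.0.0.7 are listed, without order or settings, in the submitters' processing notes. Genome build, annotation and strand handling: not given in the sources used here. Row positions, counted from 1, overlap the same protein-coding gene of GENCODE M21 (GRCm38) for 99.7% of 18021 rows. Overlapping genes divide reads by estimation. FPKM hold no read totals, so no counting interval is given.

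Values were analysed as log2(FPKM + 1), where fold changes of low genes are understated, with limma 3.58.1 in R 4.3.3 (intensity trend, two-sided, Benjamini-Hochberg over all rows with a mean of at least 1 FPKM), and with limma's test against a minimum fold of 1.2. The fit was checked on simulated data drawn independently for each library. Those data held no term shared by an arm or by the libraries of a single siRNA, so the check does not cover such terms. Single genes were also tested by an exact permutation test over the 924 divisions of the libraries, two-sided. The value of 1 read was taken from low rows in which every value above 0, scaled by relative depth, was a multiple of the smallest (tolerance 2%), leaving out differences of 0.5 or more.

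Genes were named by a rule: each MiT/TFE factor, the most abundant gene of each role, and up to 3 called per direction in each role. The rule also took any of the 38 past the minimum fold, and up to 2 called per direction in each other list. Other genes are given as ranges or counts, and Atp6v0c, Atp6v1b2, Atp6v1g1, Ctsb, Ctsl, Ctsz, Tcirg1 and others outside the rule were named after their values were seen. The genes and lists were chosen with earlier results of these data known. Alternatives covered the pseudocount, filter, scaling, trend, a block by column number, and leaving out each library. Contrasts of single siRNAs were not analysed here.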

Additional observations from a re-analysis of the deposited data

Results flagged for a closer look

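The 66 groups of 6 libraries covered each gene named by the rule above, and Zfp407, in each arm. Other named genes, among them Idua and Fnip2, were not checked. In 6 groups the gap of an extreme library to its nearest neighbour exceeded Dixon's 95% limit. Chance alone passes that limit in about 1 of 20 groups. For Mitf, the highest values were 8.75 FPKM in control library 6 (next 4.85) and 13.1 in knockdown library 3 (next 5.27). Psap was lowest in control library 6, at 534.1 FPKM (next 551.0). Atp6ap1 was lowest in control library 2, at 224.7 FPKM (next 246.2). Lmbrd1 was highest in control library 5, at 11.6 FPKM (next 10.7), and Slc17a5 was highest in knockdown library 5, at 11.4 FPKM (next 9.85).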

How the results depend on the processing

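With pseudocounts of 0.1 or 0.5, no trend, or rows of a symbol summed, 15 lysosomal genes fell and 2 rose. Centring on the library median gave 11 and 5, quantile normalisation 10 and 5, scaling without mitochondrial and short-RNA rows 7 and 1, scaling to protein-coding rows (added after seeing the data) 9 and 5, and the minimum fold of 1.2 gave 0 and 0. Leaving out 1 library gave 9 to 16 lower and 1 to 3 higher, with 1 higher without control library 1, 3 or 4 or knockdown library 1 or 5. A filter at a mean of 5 FPKM left Ctsf untested.

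Other lysosomal genes were 18 lower and 2 higher when scaled without mitochondrial and short-RNA rows, 17 and 8 when scaled to protein-coding rows, 26 and 8 under quantile normalisation and 3 and 0 at the minimum fold. Leaving out 1 library gave 25 to 32 lower and 2 to 5 higher. Over all rows, centring gave 3146 lower and 2307 higher (57.7% lower, against 68.1%), quantile normalisation 3252 and 2172, scaling to protein-coding rows 2610 and 2559, scaling without mitochondrial and short-RNA rows 2518 and 1184, and the minimum fold 543 and 313. Leaving out 1 library gave 3257 to 3875 lower and 1518 to 1752 higher. The causes of these moves were not tested.

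A block by column number called 15 lysosomal genes lower and 3 higher, and 3824 rows lower and 1876 higher. Same-numbered libraries did not deviate together (correlations from −0.05 to 0.15, and 3 of 6 control libraries closest to their own number), so the numbers were not taken as pairs. The block gave 32 other lysosomal genes lower and 6 higher.

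Of 790 values of single genes under 24 alternatives, 688 kept direction and side of the threshold, 87 lost their call, 11 gained one and 4 changed sign. These 4 were Tfe3 at 0.0011 under quantile normalisation, 0.018 scaled to protein-coding rows and 0.023 without knockdown library 2, and Mitf at −0.13 without knockdown library 3. Leaving out 1 library gave −0.086 to 0.023 for Tfe3 and −0.13 to 0.24 for Mitf. Depth is not known in these FPKM values, and the term between arms in the value of 1 read limits changes below 0.237 on the log2 scale.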
